A study of Mus musculus with 8 samples.

Results

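The interleukin-6 (IL-6) family and the colony-stimulating factors were followed in mouse bone marrow-derived dendritic cells (DCs) through 10 genes taken by name. They were 5 ligands (Il6, Osm, Lif, Csf1 and Csf3) and 5 receptor chains (Il6ra, Il6st, Csf2ra, Csf2rb and Csf2rb2). All 10 were among the 23356 genes of the expression table. In total 11397 genes reached 1 FPKM (fragments per kilobase of transcript, scaled to 1000000 mapped fragments) in at least 1 group, and 9 of the 10 genes were among them. Csf3 was the exception.

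IL-6, oncostatin M and leukemia inhibitory factor (LIF) signal through the shared receptor chain gp130, encoded by Il6st, which passes the signal to JAK kinases and to STAT3. GM-CSF acts through its own alpha chain, encoded by Csf2ra, and the beta common chain, encoded by Csf2rb, whereas M-CSF, the product of Csf1, and G-CSF, the product of Csf3, have separate receptors. In the mouse, Csf2rb2 encodes a beta chain closely related to Csf2rb that serves the IL-3 receptor.

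DCs were grown for 6 days from bone marrow of wild-type (WT) mice or of GEF-H1-/- (GEF-H1-deficient) mice, which lack Arhgef2 and, like the WT mice, are of the C57BL/6 strain (C57BL/6N in the methods), in medium with GM-CSF and IL-4 at 10 ng/ml each. They were then left as control or treated for 5 h with 100 nM ansamitocin-P3 (AP3), a maytansinoid that destabilizes microtubules. GEF-H1 is a guanine nucleotide exchange factor for RhoA that is held inactive on microtubules. RNA of all 4 groups therefore came from cells kept in GM-CSF and IL-4, and each group was sequenced as 2 libraries. Mice were 8 to 16 weeks old. Whether the 2 libraries came from separate animals was not stated in the sources used here.

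The table held 1 FPKM per group, pooled over its 2 libraries, with the 95% interval that Cuffdiff gave for it. There was thus no SD and no test between groups, and the interval is the only error attached to a value. A gene was called higher or lower when the difference in log2(FPKM + 1) was past 1 in size, a scale that understates the change of genes near 1 FPKM. As a second reading, the intervals of both groups were required not to overlap. Only a target depth was stated for the sequencing, and the number of fragments behind each value is unknown.

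Arhgef2 stood at 42.3 and 45.9 FPKM in control and treated WT DCs and at 4.59 and 4.16 FPKM in GEF-H1-deficient DCs. The 7 DC markers, among them Itgax, H2-Ab1 and Cd74, summed to between 3877 and 5797 FPKM over the groups, with none at 0 and Flt3 the lowest at 1.07 to 2.63 FPKM. Most of each sum was Cd74 alone, at 3073 to 4935 FPKM, whereas Zbtb46 was at 9.09 to 22.1 FPKM. Transcripts of other bone marrow cells were present as well: 6 neutrophil markers summed to between 21015 and 35761 FPKM. In such bulk samples, fewer cells of a type and less RNA per cell cannot be told apart.

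The promoters of the genes are shown first. Il6, Osm and Csf1 were each called higher with AP3 in WT DCs, and the sequences show what lies upstream of the starts of Il6 and Csf1. Whether these sequences have a part in the changes with AP3 was not tested. RefSeq promoters (GRCm38.p6, 250 bases before to 50 after the transcript start) were matched for 7 of the 10 genes, namely Il6, Lif, Csf1, Il6ra, Il6st, Csf2ra and Csf2rb2. The 250 bases upstream of the start are given here 5′ to 3′ along each gene for 3 ligands, with capitals for the motif matches.
Il6 (chr5:30012864-30013113, plus strand): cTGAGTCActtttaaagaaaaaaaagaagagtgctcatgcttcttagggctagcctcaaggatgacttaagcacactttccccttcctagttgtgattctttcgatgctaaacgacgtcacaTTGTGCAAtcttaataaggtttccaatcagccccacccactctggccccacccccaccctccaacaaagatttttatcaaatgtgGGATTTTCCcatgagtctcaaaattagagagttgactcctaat
Csf1 (chr3:107760470-107760719, minus strand): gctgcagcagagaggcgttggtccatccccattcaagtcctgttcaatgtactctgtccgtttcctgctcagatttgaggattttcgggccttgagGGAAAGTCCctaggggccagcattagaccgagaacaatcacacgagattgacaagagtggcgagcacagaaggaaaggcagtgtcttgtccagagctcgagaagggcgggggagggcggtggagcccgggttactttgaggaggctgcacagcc
Lif (chr11:4257318-4257567, plus strand): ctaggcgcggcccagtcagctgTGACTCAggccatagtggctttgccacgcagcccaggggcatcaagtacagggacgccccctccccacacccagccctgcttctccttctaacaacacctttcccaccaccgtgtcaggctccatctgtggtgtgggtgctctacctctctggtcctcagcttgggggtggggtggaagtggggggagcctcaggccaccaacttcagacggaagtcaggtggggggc

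Each motif was searched on both strands. Il6 held an AP-1 match (TGANTCA) at positions -249 to -243 from the start, a C/EBP match (TTNNGCAA) at -128 to -121 and an NF-kB match (GGNNNTTCC) at -43 to -35. Csf1 held an NF-kB match at -154 to -146, which lies on the opposite strand, and Lif an AP-1 match at -228 to -222. Among the receptors, Csf2rb2 held an NF-kB and a STAT match (TTCNNNGAA), Csf2ra held a CRE match (TGACGTCA), and Il6ra and Il6st held none of the motifs. The TATA motif (TATAAA) was in none of these 7 windows, and no matches overlapped. Of 32851 promoters of the same length, 7.81% held the AP-1 motif, 10.8% the C/EBP motif, 18.5% the NF-kB motif, 8.30% the STAT motif, 1.79% the CRE motif and 13.6% the TATA motif. These matches describe letters and are not evidence of binding.

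**Figure D1:**
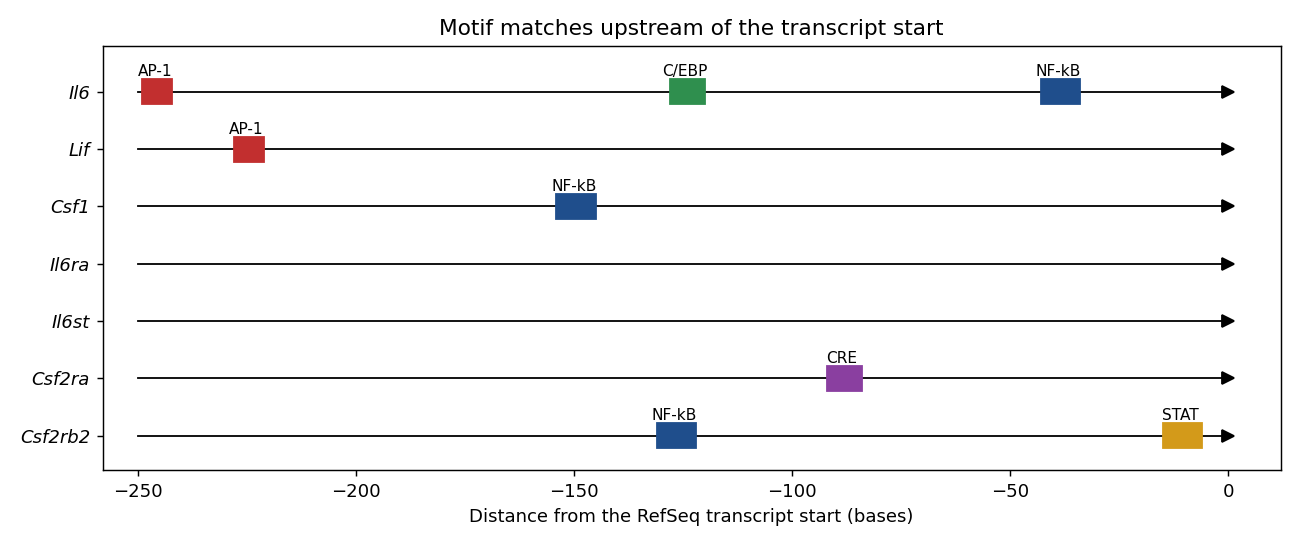
Positions of the motif matches in the 250 bases upstream of the RefSeq transcript start of 7 genes. The x axis is the distance from the start in bases, each line is 1 gene, the arrow marks the start and direction of transcription, and the boxes are matches. Il6 carries 3 matches, Csf2rb2 carries 2, Lif, Csf1 and Csf2ra carry 1 each, and Il6ra and Il6st carry none.

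With AP3, 3 of the 5 ligand genes rose in WT DCs, namely Osm, Il6 and Csf1, while no receptor gene was past the threshold. Against these 3 of 10 genes, 3.66% of all genes tested were called higher in the same comparison. Csf3 was below the filter and was not tested, so 9 genes stand behind this and the later counts out of 10. In GEF-H1-deficient DCs, Il6 and Osm were called higher and Csf1 was not, where 0.807% of all genes were called higher. The median change of the 4 measured ligands was 2.54 on the log2 scale in WT DCs and 1.12 in GEF-H1-deficient DCs. For the 5 receptors it was 0.52 and 0.03, and for all genes tested 0.00 and -0.01.

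Osm encodes oncostatin M, a cytokine of activated myeloid cells, and lies on chromosome 11 at 4236785 to 4241026 (mm10, as are all gene positions). Its level was 16.9 FPKM in control WT DCs (95% interval 13.4 to 20.4), 217 (172 to 263) in treated WT DCs, 15.7 (12.5 to 19.0) in control GEF-H1-deficient DCs and 49.9 (39.6 to 60.0) in treated GEF-H1-deficient DCs. The controls of both genotypes overlapped, and treated WT DCs stood above every other group. The rise was 12.8-fold in WT DCs, with 8.43 to 19.6 as the range that the ends of the 2 intervals allow, and 3.17-fold (2.09 to 4.80) in GEF-H1-deficient DCs. On the log2 scale these were 3.61 and 1.60, ranking 19 and 41 among the rises of the 11397 genes.

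Il6, the gene of the family's founding cytokine (chromosome 5, 30013161 to 30019968), was at 11.4 FPKM (7.42 to 13.9) in control WT DCs and 77.7 (55.4 to 89.5) after AP3. In GEF-H1-deficient DCs it was at 12.9 FPKM (8.60 to 15.5) in control and 41.0 (28.4 to 49.4) after AP3. The treated groups did not overlap with each other or with either control. The fold was 6.83 (4.0 to 12.1) in WT and 3.16 (1.83 to 5.75) in GEF-H1-deficient DCs. Il6 and Osm thus had almost the same fold in GEF-H1-deficient DCs, and in WT DCs the higher fold of Osm had a range that overlapped that of Il6.

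Csf1 encodes M-CSF, the growth factor of macrophages, and lies on chromosome 3 at 107741048 to 107760469. Unlike the other ligands, its control groups did not overlap, with 32.3 FPKM (25.9 to 38.7) in WT and 54.8 (41.9 to 68.1) in GEF-H1-deficient DCs. After AP3 it stood at 176 FPKM (135 to 217) in WT and 86.1 (65.2 to 107) in GEF-H1-deficient DCs. The order of the genotypes was therefore opposite in control and in treated cells, without overlap in either. The fold with AP3 was 5.44 (3.48 to 8.37) in WT DCs and 1.57 (0.958 to 2.55) in GEF-H1-deficient DCs, where the intervals overlapped.

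Lif, whose product acts through gp130 and the LIF receptor, was expressed at a low level (chromosome 11, 4257568 to 4272514). It was at 1.11 FPKM (0.797 to 1.43) and 2.07 (1.58 to 2.56) in control and treated WT DCs, and at 1.30 (0.956 to 1.65) and 1.54 (1.15 to 1.93) in GEF-H1-deficient DCs. Only the WT pair did not overlap, and its log2 difference of 0.54 was below the threshold. Lif and Osm are neighbours, 16541 bases apart with no RefSeq gene between them, and their values with AP3 were 1.86-fold and 12.8-fold in WT DCs. Csf3, the gene of G-CSF, was listed at 0.0194, 0, 0.0179 and 0.0204 FPKM in control WT, treated WT, control GEF-H1-/- and treated GEF-H1-deficient DCs, so that no fold is given.

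**Figure D2:**
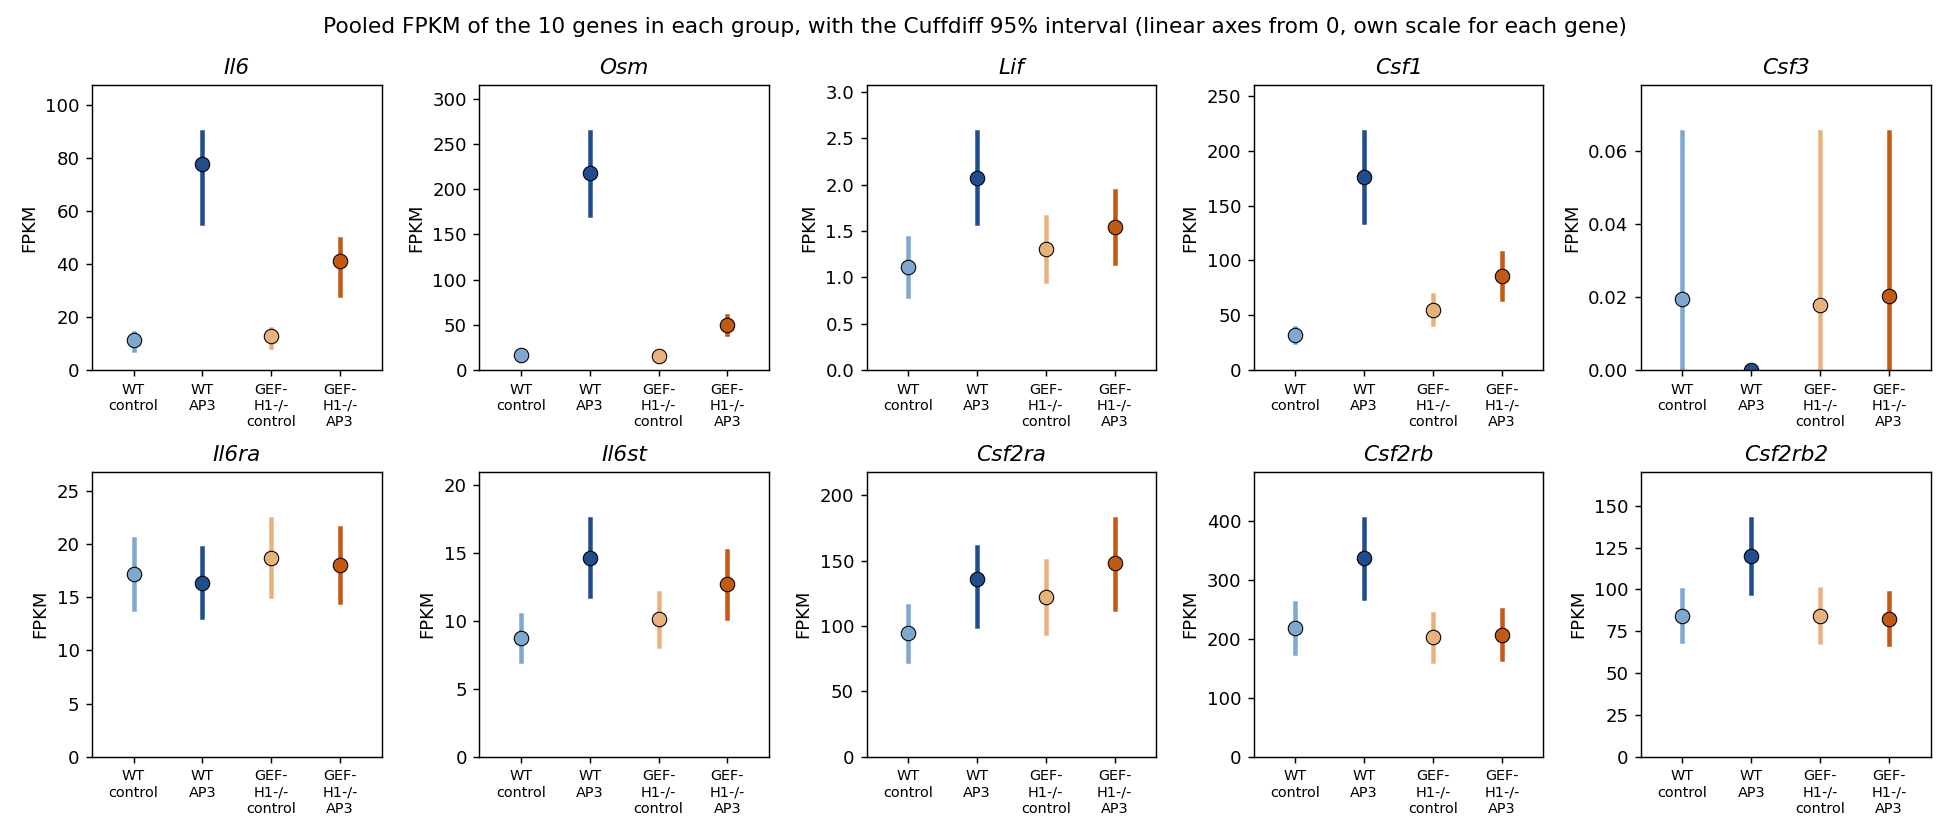
FPKM of the 10 genes in the 4 groups, 1 panel per gene with its own linear y axis from 0. Points are the pooled value of each group and bars its Cuffdiff 95% interval. Osm, Il6 and Csf1 are highest in treated WT DCs, at 217, 77.7 and 176 FPKM, while Il6ra lies between 16.4 and 18.7 FPKM in every group.

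The receptors covered a narrower range of changes than the ligands. Il6ra, which encodes the IL-6-binding chain (chromosome 3, 89869324 to 89913162), was at 17.2 FPKM (13.9 to 20.5) and 16.4 (13.1 to 19.7) in control and treated WT DCs and at 18.7 (15.1 to 22.4) and 18.04 (14.5 to 21.5) in GEF-H1-deficient DCs. All of its intervals overlapped. Il6st (chromosome 13, 112464070 to 112506860) was at 8.74 FPKM (7.05 to 10.4) and 14.7 (11.8 to 17.5) in WT DCs and at 10.1 (8.17 to 12.1) and 12.7 (10.2 to 15.1) in GEF-H1-deficient DCs. Its log2 difference with AP3 was 0.69 in WT DCs, with intervals that did not overlap, and 0.30 in GEF-H1-deficient DCs, with intervals that did. The ratio of Il6ra to Il6st FPKM in WT DCs was 1.96 (1.33 to 2.90) without and 1.12 (0.751 to 1.66) with AP3, and 1.85 (1.25 to 2.74) and 1.42 (0.960 to 2.10) in GEF-H1-deficient DCs. These ranges overlapped.

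Of the GM-CSF receptor chains, Csf2ra (chromosome 19, 61224402 to 61228418) was at 94.5 FPKM (73.1 to 116) and 136 (100 to 160) in control and treated WT DCs and at 122 (94.8 to 150) and 148 (113 to 182) in GEF-H1-deficient DCs, all overlapping. Csf2rb (chromosome 15, 78325990 to 78351001) was the most abundant of the 10 genes in every group. It stood at 218 FPKM (176 to 261) and 337 (270 to 403) in WT DCs and at 203 (162 to 243) and 207 (166 to 248) in GEF-H1-deficient DCs. Treated WT DCs were apart from each other group, although the log2 difference of 0.62 with AP3 was below the threshold. Csf2rb2 (chromosome 15, 78282510 to 78305603) was at 84.3 FPKM (69.0 to 99.7), 120 (98.2 to 142), 84.3 (68.6 to 100) and 82.6 (67.3 to 97.9) in control WT, treated WT, control GEF-H1-/- and treated GEF-H1-deficient DCs. Here the intervals of the treated groups missed each other only barely, at 97.9 and 98.2 FPKM.

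Csf2rb and Csf2rb2 lie 20386 bases apart and are near copies, so the split of reads between them is uncertain. Their coding sequences (GENCODE annotation, GRCm38) had 95.2% identity over 2628 aligned bases. Of all 35-base stretches of their transcripts, the length of the sequenced reads, 17.7% in Csf2rb and 27.04% in Csf2rb2 also occurred in another gene, against at most 0.407% for the other 8 genes. Stretches shared by Csf2rb and Csf2rb2 with each other made 17.1% and 25.9%. These shares count single reads, whereas the libraries were read in pairs, so the share of pairs that match both genes is not given. The longest shared stretch is printed because any read of this length inside it matches both genes. It has 242 bases, lies at coding positions 2083 to 2324 of both genes, and falls within 1 exon of each, at chr15:78348577-78348818 on the plus strand for Csf2rb and chr15:78284630-78284871 on the minus strand for Csf2rb2 (GRCm38).
Shared stretch: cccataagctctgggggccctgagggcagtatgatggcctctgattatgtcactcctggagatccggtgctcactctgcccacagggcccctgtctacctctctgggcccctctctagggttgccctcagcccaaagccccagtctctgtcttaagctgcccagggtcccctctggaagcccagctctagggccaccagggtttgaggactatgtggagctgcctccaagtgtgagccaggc

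The summed FPKM of both genes, which depends less on that split, was 303 and 457 in control and treated WT DCs and 287 and 290 in GEF-H1-deficient DCs. Its log2 difference with AP3 was 0.59 in WT and 0.02 in GEF-H1-deficient DCs. The ratio of Csf2ra to this sum was 0.312 (0.203 to 0.473), 0.297 (0.184 to 0.436), 0.427 (0.276 to 0.651) and 0.511 (0.327 to 0.778) in control WT, treated WT, control GEF-H1-/- and treated GEF-H1-deficient DCs. The ranges of all 4 groups overlapped.

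By level, control WT DCs held Csf2rb first, then Csf2ra and Csf2rb2, then Csf1, then Il6ra, Osm, Il6 and Il6st, with Lif and Csf3 last. The intervals of neighbours in this order overlapped between Csf2ra and Csf2rb2 and along the run from Il6ra to Il6st. In treated WT DCs, Osm and Csf1 stood the second and the third, with overlapping intervals, behind Csf2rb. The interval of Csf1 also overlapped those of Csf2ra and Csf2rb2, which came next. The FPKM of the 5 ligands summed to 61.8 in control and 473 in treated WT DCs, and to 84.8 and 178 in GEF-H1-deficient DCs.

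The change with AP3 was compared between genotypes by subtracting the log2 change in GEF-H1-deficient DCs from that in WT DCs. Osm, Csf1 and Il6 differed by 2.004, 1.77 and 1.08 in favour of WT, making 3 of 10 genes past the threshold where 1.36% of all genes were. Between genotypes, the fold ranges of Il6 overlapped (4.0 to 12.1 in WT and 1.83 to 5.75 in GEF-H1-deficient DCs). Those of Osm and Csf1 did not overlap. The call for Il6 was lost with a pseudocount of 5 FPKM (0.98) and when FPKM were rescaled to a common total (0.86), which left 2 of 10. Lif, Csf2rb, Csf2rb2, Il6st, Csf2ra and Il6ra differed by 0.40, 0.59, 0.54, 0.39, 0.24 and -0.01. As a share of the WT change, GEF-H1-deficient DCs kept 0.595 for Il6, 0.444 for Osm and 0.266 for Csf1. Over the 417 genes called higher in WT DCs the median share was 0.416, with quartiles of 0.277 and 0.556, so that Il6 was above the upper quartile and Csf1 below the lower.

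**Figure D3:**
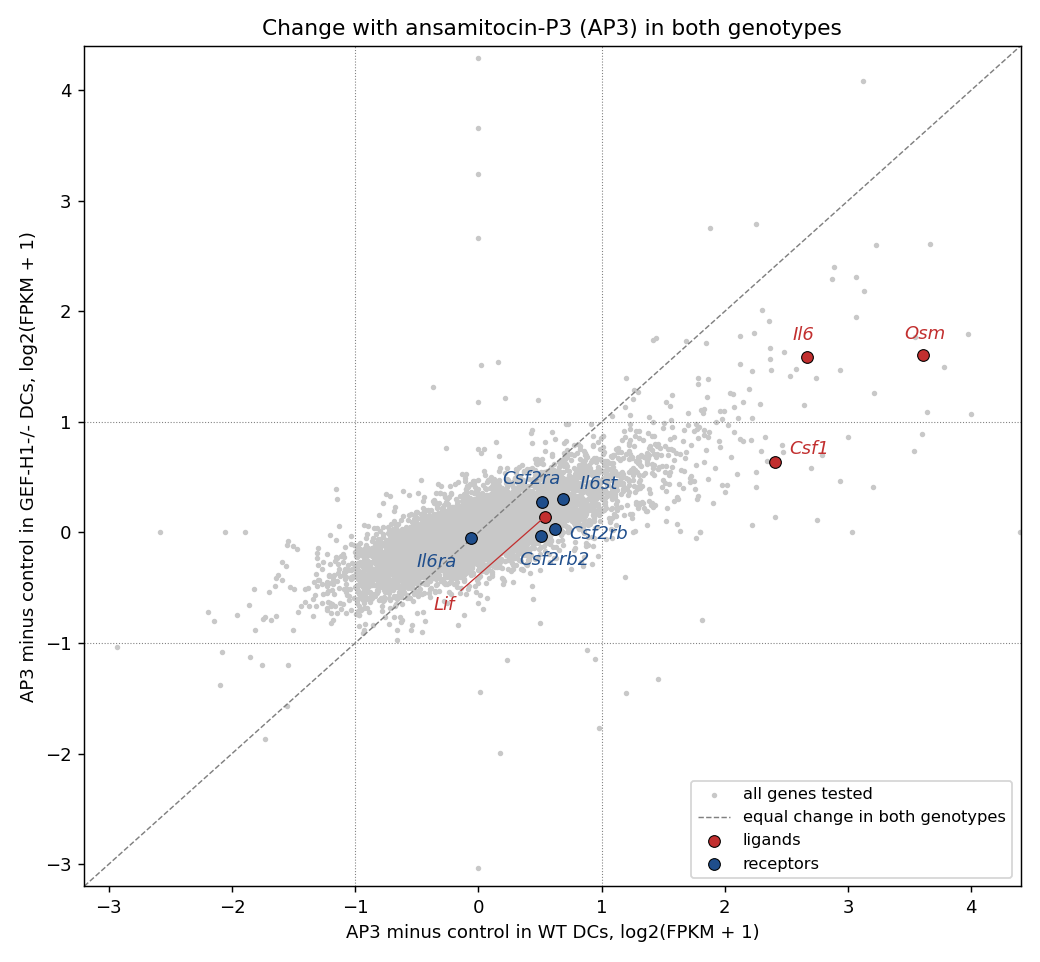
Change with AP3 in WT DCs (x axis) and in GEF-H1-deficient DCs (y axis), both as differences of log2(FPKM + 1). Grey points are all genes tested, of which 40 lie outside the axes, red points ligands and blue points receptors; dotted lines mark the threshold and the dashed line equal change. Osm at 3.61 and 1.60, Il6 at 2.67 and 1.59 and Csf1 at 2.41 and 0.64 lie to the right of the dashed line.

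In treated cells, Osm and Csf1 were lower in GEF-H1-/- than in WT DCs, by -2.10 and -1.02 on the log2 scale, where 2.06% of all genes were called lower. The call for Csf1 was close to the threshold and was lost with a pseudocount of 5 FPKM (-0.99) and under the same rescaling (-0.76). Il6 was at -0.91, below the threshold, with intervals that did not overlap. By intervals alone, Il6, Osm, Csf1, Csf2rb and Csf2rb2 were lower, 5 of 10 genes against 6.73% of all genes. Those intervals were read without rescaling. Under the same rescaling, the differences of Il6, Csf2rb and Csf2rb2 shrank to -0.66, -0.44 and -0.28, from -0.91, -0.70 and -0.54. Whether their intervals stayed apart then was not tested. Il6st was at -0.19 and turned to 0.05 under that rescaling.

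Markers of other cells differed between the treated groups as well. All 5 mast cell and basophil markers were higher in GEF-H1-deficient DCs, 2 of them past the threshold (Fcer1a at 2.57 and Ms4a2 at 1.43), with sums of 193 FPKM in WT and 353 in GEF-H1-deficient DCs. The 6 macrophage markers summed to 171 and 270 FPKM, with C1qa at 3.10 on the log2 scale. Of the neutrophil markers, Mpo (1.40) and Csf3r (1.02) were higher and Camp (-3.37) and S100a8 (-1.05) lower, with sums of 35761 and 21473 FPKM. Of the 7 stromal and endothelial markers, 6 in WT and 2 in GEF-H1-deficient DCs were below 0.1 FPKM, and Col1a2 was at 1.48 on the log2 scale. Their part in the differences of Osm and Csf1 was not tested.

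By the same reading of intervals, 6 of the 10 genes were higher with AP3 in WT DCs (Il6, Osm, Lif, Csf1, Il6st and Csf2rb), where 9.19% of all genes were. In GEF-H1-deficient DCs 2 of 10 were, Il6 and Osm, against 2.75% of all genes. These intervals were read without rescaling. With FPKM rescaled to a total of 1000000, the log2 differences of Lif, Il6st and Csf2rb in WT DCs were 0.43, 0.44 and 0.34. Without rescaling they were 0.54, 0.69 and 0.62. Whether their intervals stayed apart under rescaling was not tested.

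In control cells no gene of the 10 was past the threshold, where 1.88% of all genes were called in either direction. Csf1 came nearest, 0.74 higher in GEF-H1-deficient DCs and the only one of the 10 without overlap, where 2.86% of all genes were higher without overlap. Markers of other cells differed between these controls too. The 5 mast cell and basophil markers summed to 189 FPKM in WT and 369 in GEF-H1-/- controls, with all 5 higher in GEF-H1-deficient DCs and 2 of them past the threshold. The 6 macrophage markers summed to 226 and 298 FPKM, with 1 past the threshold, C1qa, at 4.22 and 29.2 FPKM. Of the 6 neutrophil markers, Csf3r, Mpo and Elane were higher in GEF-H1-deficient controls, by 1.37, 1.23 and 1.11 on the log2 scale. Camp was lower, by -3.57. The intervals of Elane overlapped widely (0 to 93.1 FPKM in WT and 0 to 152 in GEF-H1-/- controls), so its direction is unknown. The sum of the 6 neutrophil markers, 30327 and 21015 FPKM, was mostly S100a8 and S100a9. The FPKM of S100a8 lay outside its own interval in every group. The 7 stromal and endothelial markers summed to 48.7 and 60.3 FPKM, with 5 and 2 of them below 0.1 FPKM. Pecam1 alone made 48.3 and 56.6 FPKM of these sums. Col1a2 was past the threshold, at 0.0895 FPKM in WT and 1.96 in GEF-H1-/- controls, a log2 difference of 1.44 without overlap. The part of all these markers in the Csf1 difference was not tested.

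With AP3, by contrast, none of the neutrophil, mast cell and basophil, stromal and endothelial or T and B cell markers was past the threshold in either genotype. None of the 7 DC markers was either. Of these 7, 2 were lower in WT DCs without overlap, Ciita at -0.98 and Flt3 at -0.58 on the log2 scale, and 3 rose with overlap. In GEF-H1-deficient DCs, Ciita and Flt3 were at -0.64 and -0.19, with overlap. With FPKM rescaled to a common total, 1 DC marker was called lower in WT DCs. The macrophage markers summed to 226 FPKM in control and 171 in treated WT DCs, and to 298 and 270 in GEF-H1-deficient DCs, with Mertk at -1.86 and -0.65 on the log2 scale. Their part in the changes with AP3 was not tested.

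The remaining genes of both pathways were read as lists. Among 14 other IL-6 family ligands and receptors, 6 were measured, of which 1 was higher and 1 lower with AP3 in WT DCs and none past the threshold in GEF-H1-deficient DCs. Clcf1, the gene of cardiotrophin-like cytokine factor, was at 0.902 FPKM (0.433 to 1.35) and 6.62 (4.17 to 8.61) in control and treated WT DCs and at 2.16 (1.25 to 3.03) and 3.07 (1.90 to 4.22) in GEF-H1-deficient DCs. The log2 difference with AP3 came to 2.002 for WT and 0.36 for GEF-H1-deficient DCs. Lifr, the LIF receptor chain that pairs with gp130, fell from 5.13 FPKM (3.95 to 6.30) to 1.55 (1.04 to 2.05) in WT DCs, a log2 change of -1.27. In GEF-H1-deficient DCs it was at 4.69 FPKM (3.50 to 5.90) and 3.51 (2.56 to 4.47), or -0.33. Lif, a ligand of this chain, was at 0.54 in the same WT comparison. With a pseudocount of 5 FPKM neither Clcf1 (0.98) nor Lifr (-0.63) was past the threshold in WT DCs.

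Among 8 other colony-stimulating factor and beta common genes, 4 were measured and none was past the threshold with AP3 in either genotype. Csf2, the gene of GM-CSF, was at 1.11, 0.935, 0.818 and 0.908 FPKM in control WT, treated WT, control GEF-H1-/- and treated GEF-H1-deficient DCs, all overlapping. Csf1r, the M-CSF receptor, was at 84.9 FPKM (69.0 to 101) and 58.7 (47.9 to 69.3) in WT DCs and at 91.3 and 78.2 in GEF-H1-deficient DCs, with log2 differences of -0.53 and -0.22 and intervals that overlapped slightly in WT. The ratio of Csf1 to Csf1r in WT DCs was 0.380 (0.257 to 0.561) without and 2.995 (1.94 to 4.52) with AP3, with no overlap. In GEF-H1-deficient DCs it was 0.601 (0.386 to 0.918) and 1.10 (0.702 to 1.68), with overlap. Csf3r, the G-CSF receptor and a neutrophil marker, was at 11.3 and 13.0 FPKM in WT and at 30.7 and 27.4 in GEF-H1-deficient DCs, 1.37 higher in GEF-H1-/- controls on the log2 scale.

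Downstream, none of the 14 JAK-STAT signalling genes was past the threshold with AP3, with list medians of 0.23 in WT and -0.03 in GEF-H1-deficient DCs. The WT median turned to -0.04 when FPKM were rescaled to a common total, which moved the median of all genes to -0.25. Then 1 of the 14 was called lower in WT DCs, and none when small RNA genes were left out of the total. Stat3, the main transcription factor downstream of gp130, was at 0.58 and -0.03 without rescaling. Of 12 feedback and target genes, 2 were higher in WT DCs and none in GEF-H1-deficient DCs, with medians of 0.60 and 0.09. Socs3, the feedback inhibitor that binds gp130, rose from 10.1 FPKM (7.84 to 12.3) to 26.1 (19.6 to 31.8) in WT DCs and was at 13.4 and 17.8 in GEF-H1-deficient DCs, log2 changes of 1.29 and 0.39. Junb, an AP-1 subunit, rose from 96.0 FPKM (70.6 to 113) to 253 (172 to 276) in WT DCs and was at 82.9 and 109 in GEF-H1-deficient DCs, or 1.39 and 0.40.

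Of 5 genes of receptor shedding, 4 were measured and 2 were higher in WT DCs. Rhbdf2, a partner of the protease ADAM17, was at 21.4 and 47.0 FPKM in WT and 23.5 and 30.9 in GEF-H1-deficient DCs, log2 changes of 1.10 and 0.38. The WT value was 0.84 under the same rescaling. Timp3, an inhibitor of such proteases, was at 1.30 and 6.74 FPKM in WT and 1.78 and 2.83 in GEF-H1-deficient DCs, log2 changes of 1.75 and 0.46. With a pseudocount of 5 FPKM both were below the threshold in WT DCs, Rhbdf2 at 0.98 and Timp3 at 0.90.

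**Figure D4:**
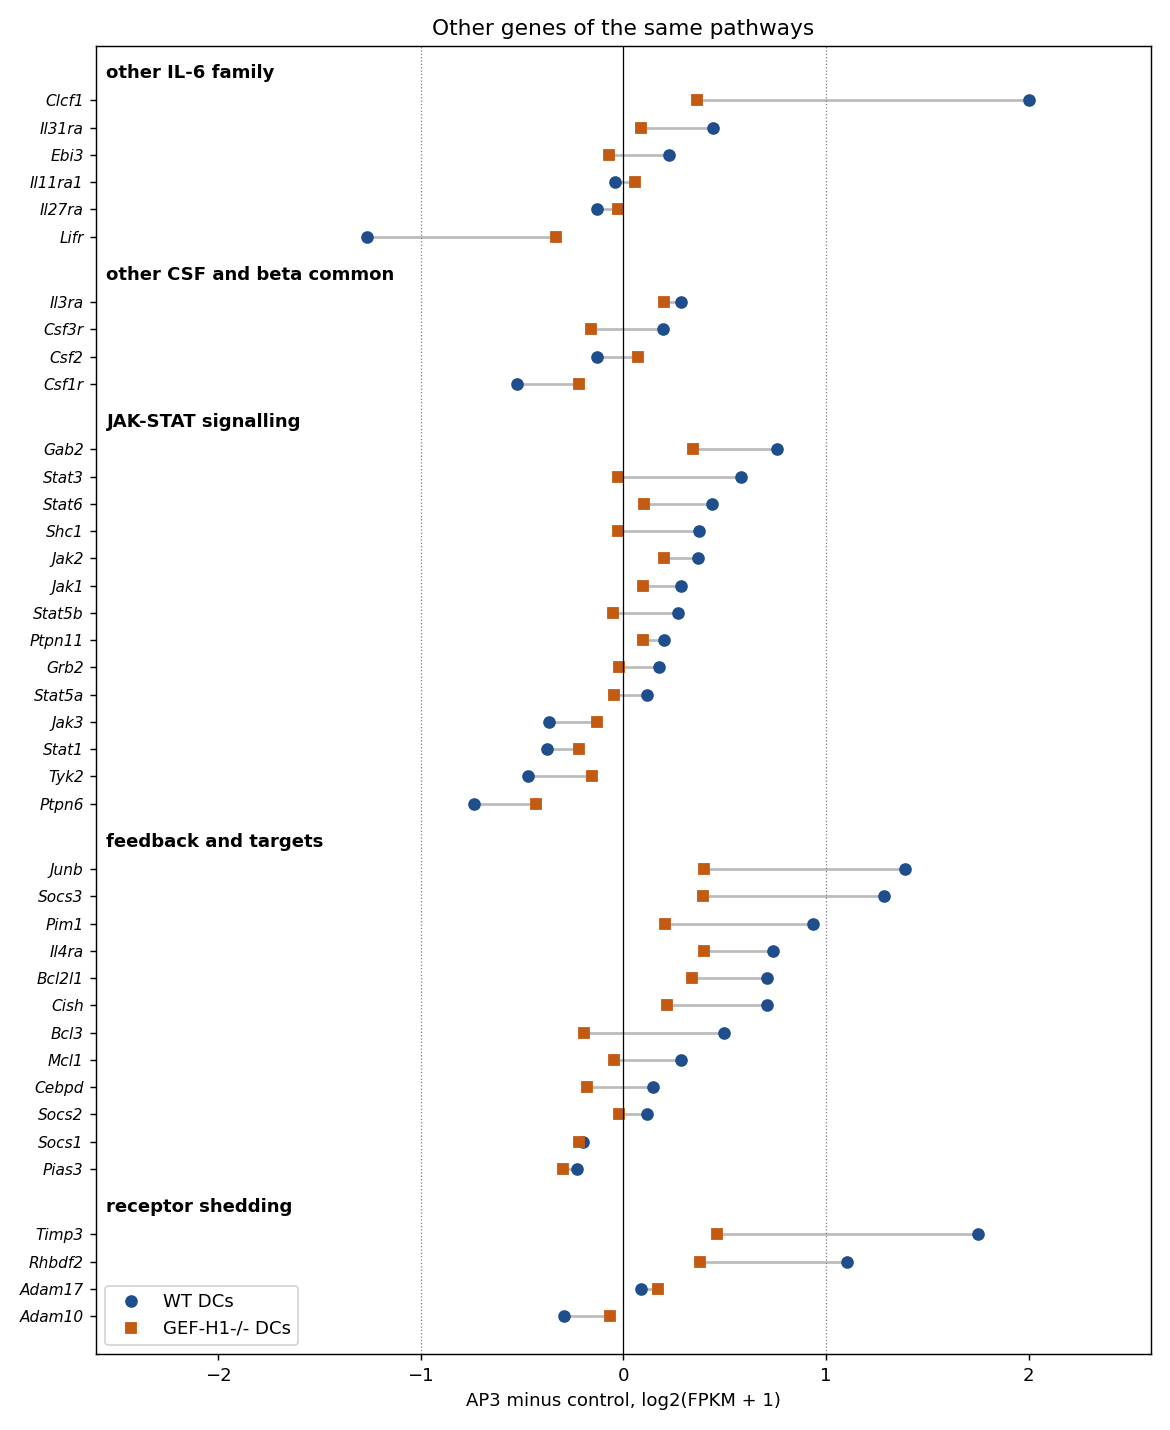
Change with AP3 of the measured genes of 5 pathway lists, as differences of log2(FPKM + 1) on the x axis. Circles are WT DCs and squares GEF-H1-deficient DCs, joined for each gene, and dotted lines mark the threshold. Past it in WT DCs are Clcf1 at 2.002, Timp3 at 1.75, Junb at 1.39, Socs3 at 1.29, Rhbdf2 at 1.10 and Lifr at -1.27, and no square is past it.

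The genes with the pattern most like Osm, Il6 and Csf1 were sought among 8894 genes, by the Euclidean distance over 3 log2 differences (AP3 in WT, AP3 in GEF-H1-/- and the control genotypes). Nearest to Osm were Inhba (distance 0.410), which encodes an activin subunit, Il1b (0.522), the gene of interleukin-1 beta, and Sdcbp2 (0.547). Nearest to Il6 were Trib1 (0.234), a pseudokinase gene, Plaur (0.294), the urokinase receptor gene, and Satb1 (0.337), which encodes a chromatin organizer. Nearest to Csf1 were Chst11 (0.358), a chondroitin sulfotransferase gene, Mir22hg (0.366) and Pdlim7 (0.395). Their log2 changes with AP3 in WT DCs ran from 2.12 for Pdlim7 to 3.64 for Sdcbp2. This change was itself 1 of the 3 values used to pick them. No gene was among the nearest of more than 1 ligand.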

How the data were processed

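RNA of 8 libraries (4 groups of 2) was made into stranded mRNA libraries and read as 35-base pairs. The authors deposited FPKM computed with Cuffdiff 1.05 on mm10, per the labels, as 1 pooled value per group with a 95% interval; the aligner and annotation are not given in the sources used here. The WT columns name no genotype and were assigned by elimination. Genes with status OK in all groups and at least 1 FPKM in at least 1 group were kept (11397 of 23356). Differences of log2(FPKM + 1) were called past 1 in size, with no p-value, since the libraries behind each group cannot be separated and p-values or an SD over replicates need them. A target depth was stated in the methods, but the depth reached is unknown. Fold ranges divide opposite interval ends. Calculations used Python 3.11.15, numpy 2.4.6 and pandas 2.3.3, and the scripts were tested on simulated data. The members, lists, motifs and named genes were chosen with earlier results of these data known. Named genes were the 10 members, Arhgef2, Csf2, Csf1r, Csf3r, listed genes past the threshold and the 3 nearest in pattern to each member called in WT; Stat3, the markers named singly and the ratio of Csf1 to Csf1r were chosen after their values were seen. Alternatives were pseudocounts of 0.1 and 5, no filter or a filter of 5 FPKM, rescaling by the median ratio or to a total of 1000000, and a requirement of separate intervals.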

Additional observations from a re-analysis of the deposited data

How the results depend on the processing

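No paired analysis was possible because the columns pool the 2 libraries of each group, and leaving out a library could not be run for the same reason. Of the members' calls, those for AP3 (3 in WT, 2 in GEF-H1-/- cells) were made under every alternative, although the filters and the requirement of separate intervals cannot change a member's value. The call of Il6 for the difference between genotypes was lost with a pseudocount of 5 (0.98), with rescaling to a total of 1000000 (0.86) and with that rescaling without small RNA genes (0.90), which left 2 of 3. With pseudocounts of 0.1 and 5 FPKM, the counts of all genes past the threshold (563 for AP3 in WT, 123 for AP3 in GEF-H1-/-, 214 between controls, 463 between treated groups and 216 for the difference between genotypes) became 956, 212, 372, 801 and 387, and 318, 77, 101, 206 and 123. Requiring separate intervals left 70 for AP3 in GEF-H1-/- DCs. It left 141 for the difference, where intervals had only to be apart in the AP3 comparison of either genotype. Of the 2 members lower in treated GEF-H1-/- DCs, 1 was left, Osm, with a pseudocount of 5, with rescaling to a total of 1000000, and with that rescaling without small RNA genes, which was chosen after seeing the data. Rescaling to the total moved the median change of all genes with AP3 in WT to -0.25 (-0.22 without small RNA genes), and between treated groups to 0.21. It turned 417 higher and 146 lower genes with AP3 in WT into 283 and 539 (307 and 495 without small RNA genes), 228 and 235 between treated groups into 519 and 144 (526 and 152), and 155 and 61 for the difference into 108 and 154 (117 and 139). Osm, Il6 and Csf1 were still past the threshold in WT DCs then, at 3.36, 2.43 and 2.14.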
